A study of Rattus norvegicus with 22 samples.

Results

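The complement components and regulators examined were C1r, C1s, C2, C3, Cfb, C3ar1, C5ar1, Serping1 and Cd55. They were chosen with earlier results of these data known. Each was found by matching the gene name printed beside each probe of the array. Each gene was read from the probe with the highest mean signal over all arrays. All 9 were present, out of 19164 gene symbols on the array. RNA came from the tongues of 11 male F344 rats that had received the carcinogen 4-nitroquinoline-1-oxide (4-NQO) at 20 ppm in their drinking water for 10 weeks. Tissue was taken 23 to 26 weeks after exposure began, at about 33 weeks of age. From each rat came an oral squamous cell carcinoma (OSCC) and a piece of phenotypically normal tongue next to it, so that the groups compared are 11 OSCC and 11 normal samples of the same animals. Every animal of both groups is entitled untreated in the sample labels and the normal pieces carry the treatment entry none, whereas the tissue protocol takes them from the 4-NQO-treated rats. No tissue from rats without the carcinogen was analysed here. Each sample was hybridised to 1 single-colour Agilent rat expression array. Both pieces are bulk tissue, in which a larger number of cells of a type and more RNA per cell cannot be told apart.

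Complement is a cascade of plasma and tissue proteins that tags microbes and damaged cells, recruits leukocytes and can pierce membranes. The classical pathway starts from C1q with the proteases C1r and C1s and proceeds through C4 and C2, and the alternative pathway is driven by factor B, with both meeting at C3. The fragments C3a and C5a act on receptors of myeloid cells, and regulators such as C1 inhibitor and decay-accelerating factor hold the cascade in check.

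Signals are given as log2 of the array signal relative to the 75th percentile of the same array, so that 0 is the level of that percentile, and a difference is OSCC minus normal within a rat. A gene was called when the limma paired fit over all 30367 probes gave a Benjamini-Hochberg adjusted p below 0.05 and the change reached 2-fold. Of the 9 complement genes, 6 were called higher in OSCC and 0 lower, on an array where 7.48% of the 19164 genes were called higher and 7.24% lower (13.8% of all probes in either direction). The 6 were C2, C3, Cfb, C3ar1, C5ar1 and Serping1. At the adjusted p alone, with no fold limit, C1r was also higher and Cd55 was lower, against 17% of all genes higher and 27.9% lower. C1s did not pass. The median difference of the 9 genes was 1.68, where that of all genes was -0.21. Because the 9 genes were chosen with earlier results of these data known, these counts and medians are a description only.

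**Figure D1:**
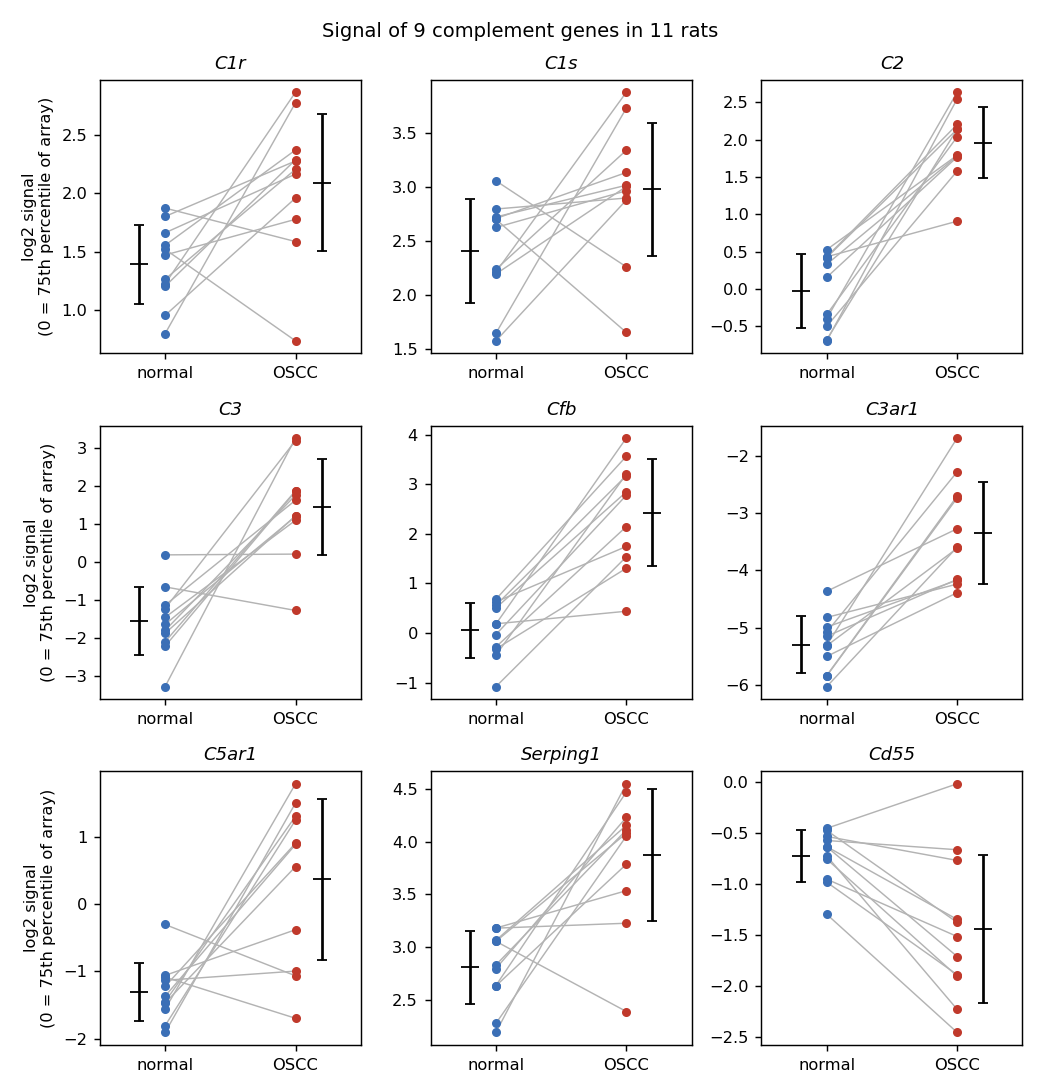
Signal of the 9 complement genes (vertical axis, log2 relative to the 75th percentile of the array) in normal tongue and OSCC. Points are samples, grey lines join the tissues of a rat, and bars are mean ± SD (n = 11); all 11 C2 points of OSCC lie above every normal point, and most Cd55 lines fall.

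The arrays and pieces differed in other ways that bear on these values. The 75th percentile signal ran from 236.8 to 654.9 on the normal arrays and from 338.7 to 1414 on the OSCC arrays, and 48.4% to 56.1% of probes against 52.3% to 65.5% were well above background. The 11 normal arrays shared 1 scan day with the OSCC arrays of animals 4 and 9, while the other 9 OSCC arrays were scanned on another day, and no slide held both tissues. For those 9 pairs, scan day and tissue cannot be told apart. All 6 squamous epithelial markers (Krt5, Krt14, Krt4, Krt13, Dsg3 and Tp63) were above background on all 22 arrays, and 1, Dsg3, was called higher. The pieces were not alike in them. The lowest differences of Krt14 (-4.33), Krt5 (-3.53), Tp63 (-3.04) and Dsg3 (-2.47) were all in animal 24. Those of Krt4 (-3.21) and Krt13 (-1.13) were in animals 4 and 16. Of 6 skeletal muscle markers, 5 were called lower in OSCC, and of 8 serous gland markers all 8 were called higher, with a summed level (signals divided by the 75th percentile) of 0.234 to 2.89 in normal pieces and 2.71 to 6314 in OSCC. The part of these tissue differences in the complement results was not tested.

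C1r and C1s are the serine proteases of the first classical complex, C1r activating C1s and C1s cleaving C4 and C2. They are neighbours on rat chromosome 4, with 0 other coding genes between them in the RefSeq order of the GRCr8 assembly. In the rn4 coordinates of the array files the C1r probe lies at chr4:160728630-160728689 on the plus strand and the C1s probe at chr4:160736725-160736784 on the minus strand. C1r signal in normal tongue ran from 0.80 (animal 11) through a median of 1.47 to 1.87 (animal 21). In OSCC it ran from 0.74 (animal 17) through 2.21 to 2.86 (animal 25). The ranges overlapped, with 8 OSCC samples above the highest normal one and 1 below the lowest. The mean difference was 0.70 (SE 0.23, n = 11 pairs, 1.62-fold, limma adjusted p = 0.0285), positive in 9 of 11 rats. This stayed under the 2-fold limit, and the adjusted p rose to between 0.0552 and 0.0647 when any of the animals 9, 11, 13, 25 or 26 was left out. With all 11 pairs the limma adjusted p was 0.0581 after scaling to the array median. It was 0.0951 with another background correction (normexp) and 0.0696 with slide as a random block. Under quantile normalization it was 0.0253, and with the authors' scaled values 0.0316.

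C1s showed a smaller difference. Its signal was 1.57 (animal 9), 2.62 and 3.06 (animal 21) at the lowest, median and highest in normal tongue, and 1.65 (animal 17), 3.003 and 3.88 (animal 25) in OSCC. Only 4 OSCC samples stood above the highest normal one. The mean difference was 0.57 (SE 0.27, 1.49-fold), positive in 9 of 11 rats, and did not pass the limma fit (adjusted p = 0.0974), although it did without animal 17 (0.73, adjusted p = 0.0313) or animal 21 (0.71, adjusted p = 0.0424). The rats that departed were the same for both proteases. In animal 17 C1r differed by -0.78 and C1s by -1.05, in animal 21 by -0.29 and -0.80, and in animal 11, at the other end, by 1.97 and 2.09.

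The 250 bases before the start of C1r (RefSeq, GRCr8, chr4:159098763-159099012, plus strand) are shown because this gene and C1s moved together; capitals mark a match to TTGCNNAA, the core of sites for C/EBP, the factor of acute-phase genes, read on either strand, with no other searched motif overlapping it.
C1r promoter: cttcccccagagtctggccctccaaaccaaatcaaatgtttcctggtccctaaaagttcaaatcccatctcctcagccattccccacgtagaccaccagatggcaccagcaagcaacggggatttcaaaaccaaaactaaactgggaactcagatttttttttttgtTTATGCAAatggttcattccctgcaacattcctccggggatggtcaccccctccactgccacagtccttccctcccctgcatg
The match starts 83 bases before the gene, and 9.22% of 33469 rat promoters of the same length hold one.

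C2, whose larger fragment is the protease of the classical C3 convertase, separated the tissues completely. Normal tongue ran from -0.69 (animal 11) through 0.16 to 0.53 (animal 21), and OSCC from 0.91 (animal 22) through 2.04 to 2.64 (animal 25). Every OSCC sample was above every normal one, a separation found in 0.694% of all genes. The mean difference was 1.99 (SE 0.24, 3.96-fold, limma adjusted p = 0.00021), from 0.48 in animal 22 to 3.24 in animal 11, and 11 of 11 rats were higher, as were 4.67% of all genes. The array carried a dimmer C2 probe further along the chromosome, which gave nearly the same difference of 1.92 (SE 0.25, adjusted p = 0.00031). Both probes are shown since they read different stretches of the gene and gave the same change.
C2 brighter probe (rn4, chr20:4071119-4071178, plus strand): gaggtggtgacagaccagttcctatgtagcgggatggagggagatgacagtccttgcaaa
C2 dimmer probe (rn4, chr20:4071504-4071563, plus strand): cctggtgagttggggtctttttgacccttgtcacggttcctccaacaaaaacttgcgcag

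C3, the protein on which all activation routes converge, showed the largest mean difference of the 9 genes. Its signal in normal tongue ran from -3.27 (animal 9) through -1.64 to 0.19 (animal 22). In OSCC it ran from -1.27 (animal 21) through 1.62 to 3.26 (animal 9). Of the OSCC samples 10 were above the highest normal sample, the exception being animal 21. On average C3 differed by 3.01 (SE 0.54, 8.07-fold, limma adjusted p = 0.0014), positive in 10 of 11 rats. It ranged from -0.62 in animal 21 and 0.02 in animal 22 to 6.53 in animal 9, the widest span of any of the 9 genes, and without animal 9 the mean was 2.66 (adjusted p = 0.0028). The C3 probe is shown as the letters that measured it; in rn4 it lies on sequence not placed on a chromosome.
C3 probe (rn4, chrUn:64513437-64513496, minus strand): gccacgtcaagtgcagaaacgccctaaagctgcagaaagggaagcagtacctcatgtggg
The promoter of C3 (RefSeq, GRCr8, chr9:2201340-2201589, minus strand) holds the same C/EBP letters, in capitals, 104 bases before the start.
C3 promoter: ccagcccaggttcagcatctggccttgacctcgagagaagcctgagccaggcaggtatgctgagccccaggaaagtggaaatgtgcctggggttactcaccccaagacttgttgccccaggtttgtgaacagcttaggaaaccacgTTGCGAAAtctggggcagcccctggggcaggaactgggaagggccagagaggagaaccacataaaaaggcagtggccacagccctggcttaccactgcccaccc

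Cfb encodes factor B, the protease of the alternative pathway convertase, and lies beside C2 on chromosome 20 with 0 other coding genes between them in GRCr8. Its probe is at chr20:4077743-4077802 (rn4, plus strand). Normal tongue ran from -1.08 (animal 13) through 0.18 to 0.68 (animal 16), and OSCC from 0.44 (animal 21) through 2.78 to 3.93 (animal 24). As with C3, 10 OSCC samples stood above the highest normal one and animal 21 did not. Cfb differed by 2.37 on average (SE 0.29, 5.18-fold, limma adjusted p = 0.00023) and 11 of 11 rats were higher, from 0.25 in animal 21 to 3.75 in animal 24. The rat with the highest C2 difference, animal 11, had a Cfb difference of 1.63, below the Cfb mean.

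**Figure D2:**
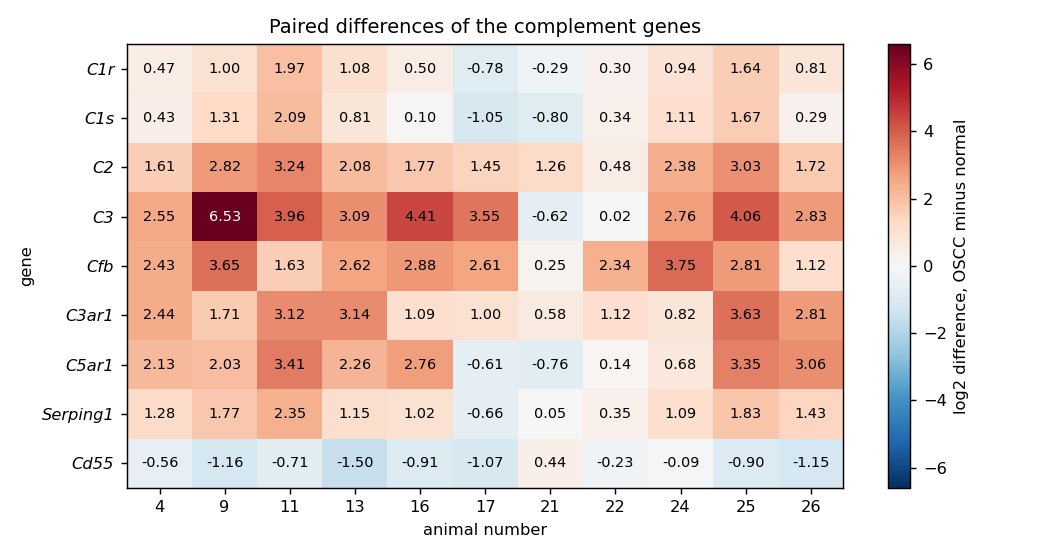
Log2 difference (OSCC minus normal; colour and printed value) of each complement gene (rows) in each rat (columns, animal number). C3 spans -0.62 to 6.53, and animals 17 and 21 hold all of the negative values outside the Cd55 row.

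C3ar1 encodes the receptor of C3a and was the only 1 of the 9 genes not well above background on all 22 arrays. On the normal arrays it ran from -6.03 (animal 4) through -5.31 to -4.37 (animal 16), well above background on 0 of 11. In OSCC it ran from -4.39 (animal 22) through -3.59 to -1.68 (animal 25), well above background on 8 of 11. The ranges touched only at their ends, with 10 OSCC samples above every normal one. The measured difference was 1.95 (SE 0.31, limma adjusted p = 0.00073), positive in 11 of 11 rats. Normal tongue has only an upper limit. The OSCC mean was therefore set against the lowest signal well above background on each normal array, or the probe's own where higher. This gave 1.46-fold. It is not a strict minimum, since the OSCC mean includes arrays where the probe was not well above background. With another background correction (normexp) the difference was 0.48 and not called (adjusted p = 0.396).

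The promoter of C3ar1 (RefSeq, GRCr8, chr4:157756531-157756780, minus strand) is shown for the match in capitals to GGG and TTTCC with 2 bases between, letters of sites for NF-kB, the inducible factor of inflammatory genes, on the reverse strand.
C3ar1 promoter: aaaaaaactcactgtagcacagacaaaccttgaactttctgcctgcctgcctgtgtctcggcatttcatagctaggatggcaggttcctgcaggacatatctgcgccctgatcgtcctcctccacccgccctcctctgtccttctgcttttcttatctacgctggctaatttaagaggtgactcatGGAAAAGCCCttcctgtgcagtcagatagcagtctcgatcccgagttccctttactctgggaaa
The match starts 64 bases before the gene, and 1.3% of the promoters hold one.

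C5ar1, the receptor of C5a on neutrophils and macrophages, divided the rats. Its probe has no rn4 position in the files. In normal tongue it ran from -1.91 (animal 11) through -1.37 to -0.31 (animal 21), and in OSCC from -1.70 (animal 17) through 0.88 to 1.79 (animal 25). Of the OSCC samples, 7 were above the highest normal one and the other 4 lay inside the normal range. The same 7 rats had differences between 2.03 and 3.41, whereas animals 21, 17, 22 and 24 had -0.76, -0.61, 0.14 and 0.68. Over all 11 the mean was 1.68 (SE 0.42, 3.19-fold, limma adjusted p = 0.0092). The spread between OSCC samples (SD 1.20) was 2.76 times that between normal samples (SD 0.43).

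Most markers of the leukocytes that carry these receptors moved in the same direction. Of 8 macrophage markers 6 were called higher and 0 lower, with summed levels of 3.84 to 7.97 in normal pieces and 7.24 to 32.8 in OSCC. Of the other 2, Marco was above background on no array. Cd163, above background on every array, differed by 0.36 and was not called (limma adjusted p = 0.238). Of 8 neutrophil markers 6 were called higher, with summed levels of 0.667 to 4.63 in normal pieces and 1.57 to 395.6 in OSCC. The OSCC sums are mostly S100a9 and S100a8, with mean OSCC signals of 4.74 and 3.87. Those of Csf3r, Cxcr2, Mmp8 and Camp were -0.22, -1.31, -3.33 and -4.05. S100a8 had values in only 10 pairs. Mpo and Ngp, granule genes of neutrophil precursors, were above background on none. Of 7 fibroblast markers 5 were called higher, of 5 T cell markers 3, and of 4 B and plasma cell markers 2, with 0 lower in each list. Some of the called markers were above background on 0 normal arrays, so the size of their change is not known. They were Msr1 (macrophage), Mmp8 and Camp (neutrophil), and Cd79b and Mzb1, the called B and plasma cell markers. None of 5 endothelial markers reached the 2-fold limit, but 3 were lower at the adjusted p alone (Pecam1, Vwf and Kdr), with overlapping summed levels (8.39 to 13.1 in normal pieces, 3.48 to 11.8 in OSCC). The part of these cell types in the complement differences was not tested.

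Serping1 encodes C1 inhibitor, the serpin that inactivates C1r and C1s. The probe is at chr3:67968812-67968871 (rn4, minus strand). Its signal was 2.19 (animal 11), 2.83 and 3.18 (animal 22) at the lowest, median and highest in normal tongue, and 2.39 (animal 17), 4.08 and 4.55 (animal 11) in OSCC. Of the OSCC samples 10 were above the highest normal sample, and animal 17 was not. This amounted to a mean difference of 1.06 (SE 0.25, 2.09-fold, limma adjusted p = 0.0056), positive in 10 of 11 rats with -0.66 in animal 17. The value sat just past the 2-fold limit, and fell below it without animal 9 (0.99), animal 11 (0.93) or animal 25 (0.98), with the adjusted p between 0.0138 and 0.0155.

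Cd55 encodes decay-accelerating factor, a membrane regulator that takes apart the C3 convertases, and was the only 1 of the 9 genes with a lower mean in OSCC. Its signal in normal tongue ran from -1.29 (animal 9) through -0.63 to -0.45 (animal 21), a narrow range. In OSCC it ran from -2.45 (animal 9) through -1.51 to -0.02 (animal 21). Of the OSCC samples 8 were below the lowest normal one, and 1, that of animal 21, was above the highest. The mean difference was -0.71 (SE 0.17, 1.64-fold lower, limma adjusted p = 0.0068), negative in 10 of 11 rats, with 0.44 in animal 21. It passed the adjusted p but not the 2-fold limit. Another Cd55 probe, at higher coordinates, measured -0.29 (SE 0.20, limma adjusted p = 0.237), negative in 7 of 11 rats. That is close to the median difference of all probes, -0.24. Both means were negative, but only the brighter probe passed the adjusted p. With the normexp correction the brighter probe gave -0.45 and did not pass (limma adjusted p = 0.154). Both probes are shown because the result rests on which is read.
Cd55 brighter probe (rn4, chr13:43322246-43322305, minus strand): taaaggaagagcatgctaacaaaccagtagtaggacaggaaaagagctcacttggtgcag
Cd55 dimmer probe (rn4, chr13:43336846-43336905, minus strand): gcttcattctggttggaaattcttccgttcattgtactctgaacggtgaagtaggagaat
The promoter of Cd55 (RefSeq, GRCr8, chr13:44438102-44438351, minus strand), shown as that of the gene with the opposite sign, holds neither set of letters. Nor were the STAT letters TTCNNNGAA (7.67% of promoters) or those of the interferon-stimulated response element, GAAA and GAAA with 2 bases between (3.41%), present on either strand of any of the 4 promoters.
Cd55 promoter: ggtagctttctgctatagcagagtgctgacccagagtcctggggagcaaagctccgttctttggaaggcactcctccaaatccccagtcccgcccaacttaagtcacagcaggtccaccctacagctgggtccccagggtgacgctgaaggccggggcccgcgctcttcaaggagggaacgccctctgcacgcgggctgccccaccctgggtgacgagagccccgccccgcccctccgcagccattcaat

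Across rats the changes were not uniform. In 9 of the 11 animals 8 of the 9 genes were higher in OSCC, all but Cd55. In animal 17 only C2, C3, Cfb and C3ar1 were higher, and in animal 21 C2, Cfb, C3ar1, Serping1 and Cd55. The median difference over the 9 genes was -0.61 in animal 17, 0.05 in animal 21 and 0.34 in animal 22, and 1.09 to 2.81 in the other 8. The median over all genes was 0.05, 0.24 and 0.04 in these 3 animals.

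The relation between genes was asked over the 11 paired differences for 7 gene pairs, with two-sided permutation tests and adjustment over the 7. C1r and C1s moved nearly in step, with Pearson's r = 0.97 (permutation p = 1e-05, the smallest that 100000 permutations can give; adjusted p = 7e-05) and Spearman's rho = 0.90 (permutation p = 0.00042, adjusted p = 0.0029), and r = 0.93 without animals 11 and 17. C1s and Serping1, protease and inhibitor, gave r = 0.91 (permutation p = 7e-05, adjusted p = 0.000245) and rho = 0.85 (permutation p = 0.0015, adjusted p = 0.0052), with r = 0.81 without the same animals. Such a test does not show that a relation is particular to the pair. Cmtm3 and Calhm2 followed C1r as closely as C1s did (r = 0.97 each).

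The remaining relations were weaker. C3 and Cd55 ran in opposite directions, with r = -0.72 (permutation p = 0.0118, adjusted p = 0.0207) and rho = -0.65 (permutation p = 0.0334, adjusted p = 0.0584), and r was -0.49 without animals 9 and 21, on which the relation partly rests. C3 and Cfb gave r = 0.62 (permutation p = 0.0415, adjusted p = 0.058) and rho = 0.56 (permutation p = 0.0766, adjusted p = 0.107), which fell to r = 0.07 without those animals. For C2 and Cfb r was 0.33 (permutation p = 0.328, adjusted p = 0.328) and rho 0.47 (permutation p = 0.148, adjusted p = 0.172), and r was 0.67 without animals 22 and 11. For C3 and C3ar1 r was 0.36 (permutation p = 0.286, adjusted p = 0.328) and rho 0.38 (permutation p = 0.247, adjusted p = 0.247), with 0.31 without animals 9 and 21. For C3ar1 and C5ar1 the rats fell into separate clusters by their C5ar1 differences, so no pooled value is given. The 4 animals with low C5ar1 differences had C3ar1 differences of 0.58 to 1.12 and the other 7 of 1.10 to 3.63, which overlap. C3ar1 was well above background on 0 of 11 normal and 8 of 11 OSCC arrays, which limits both of its relations. Within the 7, r was 0.48 (exact permutation p = 0.287) and rho 0.54 (exact permutation p = 0.236), and r was 0.62 over the 5 left when the animals with C3ar1 differences farthest from the median were removed.

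**Figure D3:**
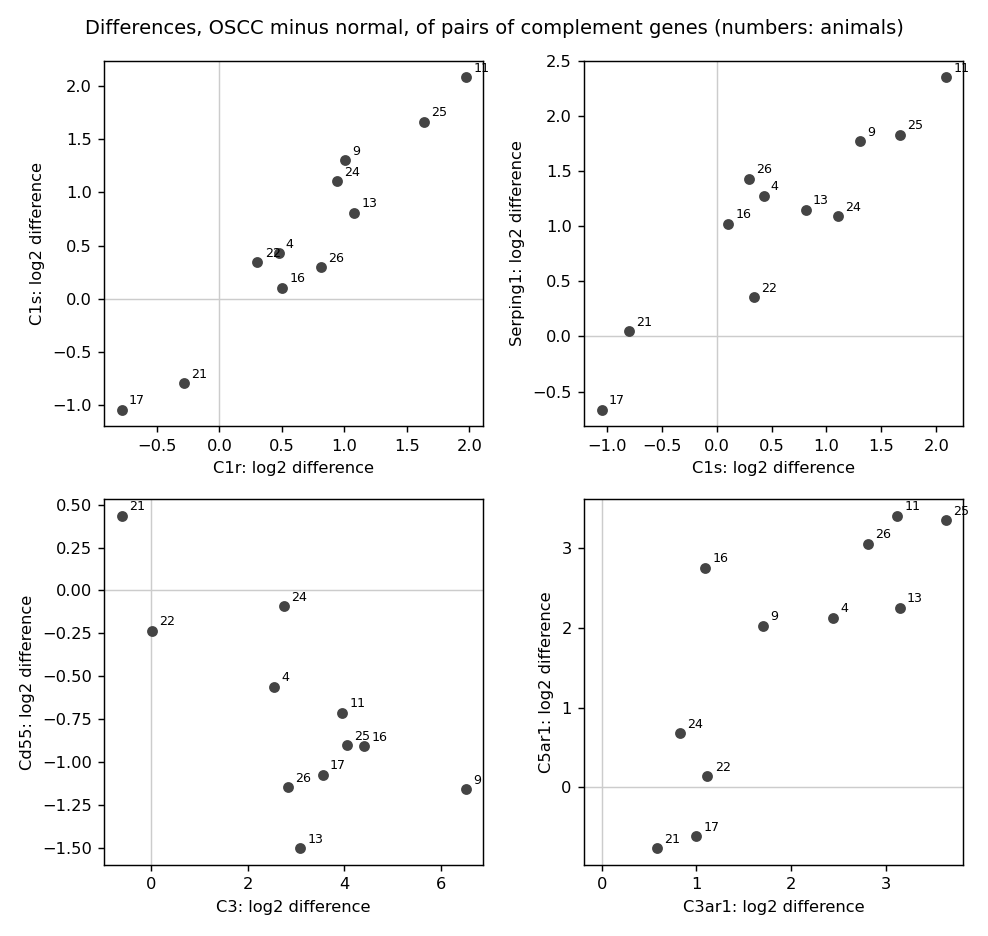
Log2 differences (OSCC minus normal) of 1 complement gene against another, 1 point per rat with its animal number. C1r with C1s and C1s with Serping1 rise together (r = 0.97 and 0.91), C3 with Cd55 falls (r = -0.72), and animals 17, 21, 22 and 24 lie apart in C5ar1.

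For each complement gene, the 3 genes with the most similar differences over the 11 rats were sought among 11641 genes above background on at least 11 arrays, as a description. For C1r they were Cmtm3, Calhm2 and C1s (r = 0.97 each), and for C1s they were Clec10a, Mrc1 (r = 0.98 each) and Colec12 (r = 0.97), Clec10a and Mrc1 being lectin receptors of macrophages. C5ar1 was closest to Leprel2, Fcgr2a, an Fc receptor of myeloid cells (r = 0.99 each), and LOC498276 (r = 0.98). Serping1 was closest to Arf2 (r = 0.96), Pdgfra, a receptor of fibroblasts (r = 0.96) and Fn1, fibronectin (r = 0.95). C3ar1 was closest to Sphk1 (r = 0.96), Msc (r = 0.96) and LOC688289 (r = 0.94), and Cd55 to Amotl1 (r = 0.94), Hbe2 and Myl2 (r = 0.92 each). The nearest genes were less close for C2 (Vwa5a, r = 0.92; RT1-M3-1, r = 0.89; LOC498750, r = 0.88), for C3 (Tmem18, r = 0.93; RGD1562101, r = 0.91; Fam110c, r = 0.90) and for Cfb (Kif2a, r = 0.92; Socs2, r = 0.89; Nr2c1, r = 0.88). These rats share arrays, scaling and the cell makeup of their pieces across genes.

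The wider system was read from 6 lists with 51 complement genes, also chosen with earlier results of these data known. Colec11, C7, C8b and Itgax did not match a gene name on the array. Of the 47 measured, 16 were called higher in OSCC and 0 lower by the limma fit, beside the 7.48% and 7.24% of all genes, and their median difference was 0.32. Leaving the 9 genes above aside, 10 of 38 were called higher and 0 lower, with a median of 0.05. That median lies between a gene above background on no array and another above background on 1 OSCC array only. Of the 47, 8 were above background on no array.

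In the classical list 2 of 8 genes were called, C2 and C1qc, a chain of C1q (1.49, SE 0.28, adjusted p = 0.0018, higher in 10 of 11 rats), and the list's median was 0.77. The other C1q chains, brighter in normal tongue, stayed under the 2-fold limit (named after their values were seen). C1qa differed by 0.84 (limma adjusted p = 0.0118) and C1qb by 0.86 (limma adjusted p = 0.0042). The lectin list had a median of -0.49, the value of a gene above background on no array, as were 3 of its 7 genes. In this list 2 of 7 were called. Those were Fcnb, a ficolin of neutrophils (2.56, SE 0.57, adjusted p = 0.0045, 9 of 11 rats), and Masp2, the protease that acts with lectins (1.26, SE 0.46, adjusted p = 0.0435, 9 of 11). The Masp2 probe was above background on 3 normal and 9 OSCC arrays, and its other probe gave -0.01 (adjusted p = 0.986) with 1 array above background. Masp1, not called by its brighter probe (-0.50, adjusted p = 0.146), was called higher by a dimmer one (1.20, adjusted p = 0.0023) that was above background on 4 arrays, all OSCC.

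In the C3 and alternative pathway list 3 of 4 were called, with a median of 1.84: C3, Cfb and Cfp, which encodes properdin, the stabiliser of the convertase (1.30, SE 0.25, adjusted p = 0.0021, 10 of 11 rats). None of 5 terminal pathway genes was called. Of these, 2 were above background on no array, and another on 1 normal and 3 OSCC arrays. Their median of -0.39 is the value of a gene above background on no array, so it does not show how the pathway moved. Among 8 receptor genes 5 were called, with a median of 1.64. Itgam and Itgb2, the chains of complement receptor 3, were higher in 11 of 11 rats (2.13, SE 0.27, adjusted p = 0.0003 for Itgam; 2.62, SE 0.47, adjusted p = 0.0014 for Itgb2). C5ar2, listed on the array as Gpr77 and a further C5a receptor, differed by 1.60 (SE 0.20, adjusted p = 0.0003) but was above background on 0 normal and 6 OSCC arrays, so no fold is given.

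Among 15 regulators 4 were called, with a median of -0.17. That median is the value of a gene above background on 0 normal and 1 OSCC arrays. Factor I, the protease that cleaves C3b and is encoded by Cfi, had a difference of 3.01 (SE 0.42, adjusted p = 0.00043, 10 of 11 rats). Ptx3, a pentraxin that binds C1q, differed by 2.89 (SE 0.62, adjusted p = 0.0036, 10 of 11) and was above background on 1 normal and 9 OSCC arrays. Clu, clusterin, differed by 1.05 (SE 0.24, adjusted p = 0.0054, 10 of 11), and the other was Serping1. At the adjusted p alone 21 of the 47 were higher and 5 lower, beside 17% and 27.9% of all genes. The 5 were Cd55, Vtn, C8g, Mbl2 and C9, the last 2 above background on no array (named here after their values were seen). All 47 differences were taken with the same rats and arrays.

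**Figure D4:**
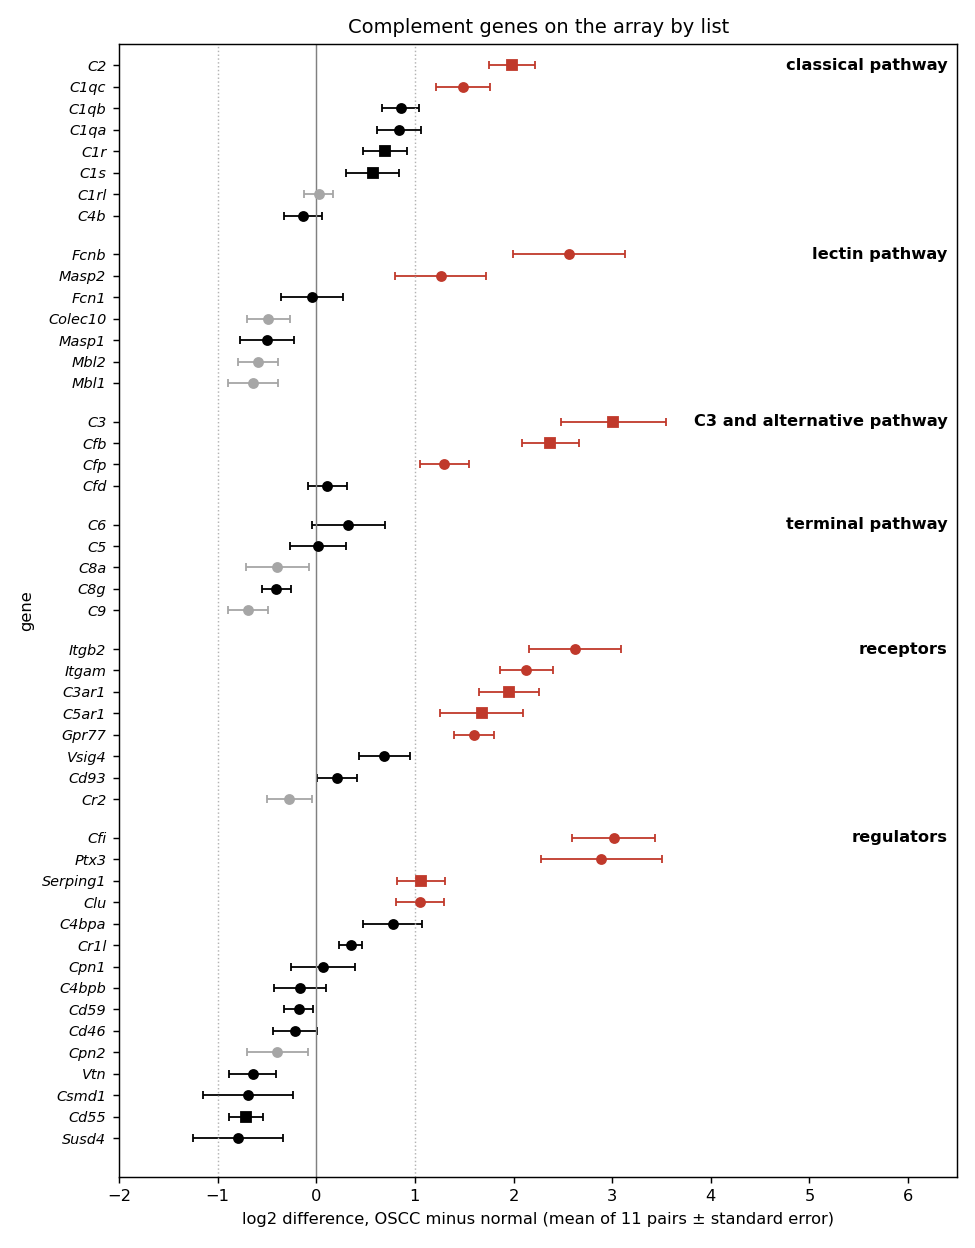
Log2 difference (OSCC minus normal, mean of 11 pairs ± standard error) of 47 complement genes by list, with array symbols. Squares are the 9 genes described first, red marks genes called higher, grey genes above background on no array, and dotted lines 2-fold. Of the 47 genes 16 are red, none of them in the terminal pathway list, where 2 of 5 are grey.

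Of the alternatives run, scan day as a term removed the most calls. With scan day as a term, so that the tissue difference comes from animals 4 and 9 alone, 0 of the 9 genes and 0 of the 47 passed the limma fit, with 3 of all probes called. At unadjusted p below 0.05 and 2-fold, 5 of the 9 were higher and 0 lower, and of the 47 there were 14 higher and 6 lower, beside 6.21% of all genes higher and 23% lower. For each of the 9 genes the mean difference of the 2 pairs scanned on the same day had the sign of the 11-pair mean and was larger in size. In these 2 pairs the tissues still lay on different slides, so slide and tissue cannot be told apart. Their OSCC arrays were also brighter, with 75th percentile signals of 1414 and 894.7 against 446 and 379.3 on the normal arrays. C2 differed by 1.61 in animal 4 and 2.82 in animal 9, C3 by 2.55 and 6.53, Cfb by 2.43 and 3.65, C3ar1 by 2.44 and 1.71, C5ar1 by 2.13 and 2.03, and Serping1 by 1.28 and 1.77. C1r differed by 0.47 and 1.00, C1s by 0.43 and 1.31, and Cd55 by -0.56 and -1.16. In the other 9 pairs alone, 5 of the 9 genes were called; Serping1 was not (0.96, adjusted p = 0.0352), and C1r no longer passed the adjusted p (0.69, adjusted p = 0.0944).

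**Figure D5:**
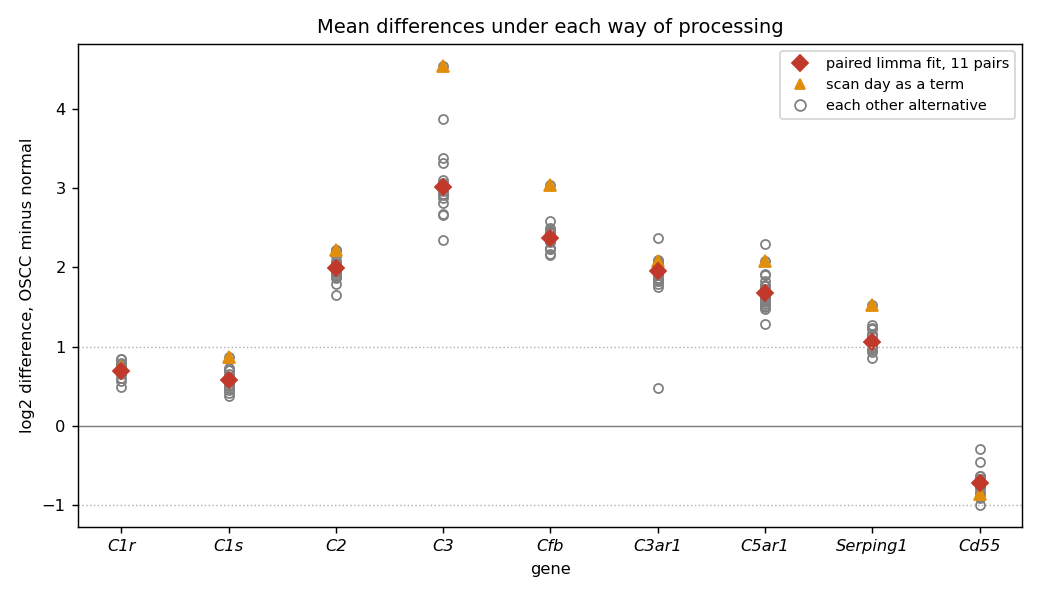
Mean log2 difference (OSCC minus normal) of each complement gene under each processing alternative. Diamonds are the paired limma fit, triangles the fit with scan day as a term and open circles the others; every gene keeps its sign, and the low C3ar1 circle at 0.48 is the normexp correction.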

How the data were processed

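RNA of 11 OSCC and 11 normal tongue samples was hybridised to single-colour arrays. The authors scanned them and deposited background-corrected spot intensity from Agilent Feature Extraction 9.5.3.1, together with a table of each value as a ratio to the 75th percentile of its array, which was used as an alternative. Of 42877 spots per array, control spots and outlier spots (0.975% of values) were left out. Spots of a probe were averaged to 30367 probes, scaled to the 75th percentile and put on the log2 scale. Intensity, and the 11 arrays per tissue, limit the precision.

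limma 3.58.1 in R 4.3.3 fitted tissue with rat as a block, since both pieces came from the same animal (correlation of the deviations of paired arrays -0.21 to 0.24, median -0.02), and p-values were adjusted over all probes. The fit was tested on simulated data. The methods' own paired t-test was an alternative.

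The complement genes and all lists were chosen with earlier results of these data known. All 9 were named, with every other listed gene that was called, 3 genes of most similar pattern for each, and markers detected on no array. One probe per gene was used, the brightest. Fcna was read under the array symbol Fcn1 and C4a from a probe named C4b. A gene of the regulator list is not reported here and is left out of its counts. Promoters came from RefSeq's GRCr8 tables, with 4 of 9 genes matched. Alternatives covered scaling, background correction, slide, scan day, the block, low-signal probes and each rat left out.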

Additional observations from a re-analysis of the deposited data

How the results depend on the processing

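None of the 9 genes changed the sign of its difference under the alternatives run on them, whereas Masp1 of the wider lists was positive by its dimmer probe (1.20 against -0.50). Over the 9 genes 205 tested combinations of gene and alternative left the gene on its side of the limit for a call while 12 took a call away. With scan day as a term the calls fell from 6 to 0 among the 9 genes, from 16 to 0 among the 47 and from 4201 to 3 over all probes, where 9578 probes passed at unadjusted p; adjusted p under that term was 0.0855 for C2, C3 and Cfb, 0.087 for C3ar1, 0.092 for Serping1 and 0.164 for C5ar1. The normexp correction called 1701 probes, and 5 of the 9 genes. Without the pairs of animals 21, 22 and 24 there were 6924 probes called, and among the 47 genes 2 were called lower, Vtn (-1.02) and Masp1 (-1.0001), named after their values were seen. The cause of these changes was not tested. Without the replicate block that pairs the tissues of a rat, 6 of the 9 genes, 16 of the 47 and 4227 probes were called, so the pairing changed no call count by much. Leaving out each rat in turn gave 5 to 6 of the 9, 13 to 16 of the 47 and 3649 to 4799 probes. Scaling to the array median removed the Serping1 call (0.86), and C3ar1 was not among probes above background on at least 11 arrays. The median of all probes was -0.24, and -0.03, -0.44, -0.15, -0.08 and -0.14 under quantile, array median, detected-probe percentile, normexp and the authors' scaling; 49.6% of calls were higher, against 32.8% by the array median. Genes near background, such as C3ar1, C5ar2 and Masp2, are limited by signal.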
